A study of Mus musculus with 12 samples.

Results

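The striatum of mice that kept drinking ethanol after it was made bitter was compared with the striatum of mice that mostly drank water. The comparison takes 6 of the 12 arrays of the series: the 3 titled as striatum of inflexible drinkers and the 3 titled as striatum of light drinkers. The other 6 arrays are prefrontal cortex of the same drinking classes. They entered the statistical fit, which estimates the spread from all 12 arrays, and they served as a second region. Each of 18193 genes was represented by the brightest of its probe sets, taken over all 12 arrays.

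All mice were male and of the outbred Swiss stock. From an age of 6 weeks they chose freely between water, 5% ethanol and 10% ethanol. Acquisition took 10 weeks, withdrawal of ethanol 2 weeks and renewed access 2 weeks, and quinine at 0.005 g/L was then added to both ethanol bottles for 2 weeks. The classes were assigned from each animal's own intake, and 1 more week of free choice followed the quinine. Inflexible drinkers preferred ethanol at every stage, quinine included, and light drinkers took more water than ethanol. Mean blood ethanol was 113 ± 11.3 mg/dL in the inflexible class and 48 ± 13.3 mg/dL in the light class, per the labels, which do not name the kind of error. Both groups had ethanol on offer for the same time, so the contrast is between 2 levels of voluntary intake and not between ethanol and no ethanol. The labels give an age of 22 weeks, which the 4 stages up to the quinine add up to without the further week.

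The labels give a single RNA pool concentration for each group, 574.36 ng/µL for inflexible and 580.84 ng/µL for light striatum. A group's 3 arrays could thus be repeat hybridisations of 1 pool. Every SD, SE and p-value here covers the spread between arrays and may not cover the spread between mice. In whole tissue, fewer cells of a type and less RNA per cell cannot be told apart.

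The striatum is the input nucleus of the basal ganglia. Most of its neurons are GABAergic projection neurons of 2 kinds: one carries the D1 dopamine receptor and makes substance P and dynorphin, the other carries the D2 receptor and makes enkephalin. Dopamine acts on both through cyclic AMP and the phosphoprotein DARPP-32, and this circuit takes part in reward learning and in the shift from goal-directed to habitual action.

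The markers fixed for these neurons matched the tissue label. The mean log2 level of 9 D1 neuron genes was 4.53 to 4.97 on the 6 striatal arrays and 3.66 to 4.10 on the prefrontal ones. For 6 D2 neuron genes the ranges were 4.95 to 5.37 and 3.78 to 4.41. The mean of 17 cortical excitatory neuron genes was 5.25 to 5.67 in striatum and 5.63 to 6.07 in prefrontal cortex, ranges that overlap. Ttr, the thyroid hormone carrier made by the choroid plexus, stood between 10.85 and 11.48 on all 6 striatal arrays, while only 1 of the 16 choroid plexus and ependyma genes had a mean above log2 4.

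The arrays carried a split that no label explains. The mean of 18 spiked hybridisation control probe sets was 8.89, 6.47 and 8.36 on inflexible arrays 1 to 3 and 8.98, 6.50 and 6.54 on light arrays 1 to 3. Controls were thus high on 2 inflexible arrays and 1 light array. The 18S ribosomal RNA probe sets ran the other way, at 5.57, 8.74 and 7.63 on the inflexible and 6.19, 8.68 and 8.84 on the light arrays. The first principal component of the 6 arrays held 58.1% of the variance and separated high from low controls, not the drinking classes. The model therefore holds the high or low control level as a term, and the counts without that term are given beside it.

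**Figure D1:**
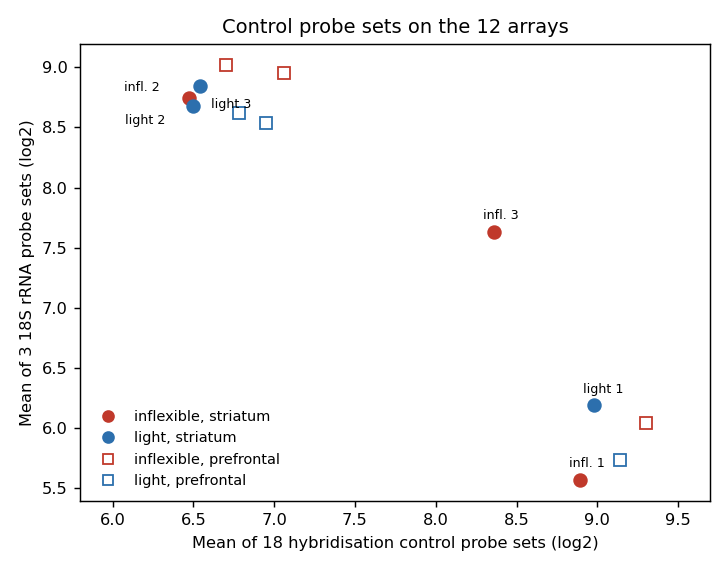
Mean log2 value of the 18 spiked hybridisation control probe sets (x axis) against that of the 3 18S ribosomal RNA probe sets (y axis), 1 point for each of the 12 arrays. Inflexible arrays 1 and 3 and light array 1 lie at high controls and low 18S, and the other 3 striatal arrays lie close together at low controls.

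With the term in the fit, limma called 34 of 45037 probe sets (0.0755%) at an adjusted p under 0.05, 21 higher (0.0466%) and 13 lower (0.0289%) in inflexible drinkers. The absolute differences ran from 0.22 to 0.94 on the log2 scale, with a median of 0.51. Among the 18193 genes, 20 were called (0.11%), of which 16 rose (0.0879%) and 4 fell (0.022%). Without the term limma called 5 probe sets (0.0111%) and 4 genes (0.022%), and these 4 genes, Slc35d3, Kcna5, Arpp21 and Kazn, are also among the 20. At an unadjusted p under 0.05 there were 1088 higher genes (5.98%) and 543 lower ones (2.98%) with the term, and 3396 probe sets (7.54%) in all.

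The 20 calls rest on the spread estimated from all 12 arrays. Fitted to the 6 striatal arrays alone, limma called 0 probe sets and 0 genes, with 2824 probe sets at an unadjusted p under 0.05, and the adjusted p of the 20 genes ran from 0.154 to 0.446. In all 20, the inflexible arrays lay on one side of the light arrays both among the high-control and among the low-control arrays, which held for 25.8% of all genes. In 18 of the 20 the 3 inflexible arrays did not overlap the 3 light ones, which held for 7.53% of all genes; Derl2 and Pcdh19 overlapped. These 2 counts use the same values as the test and add nothing to it. Only 12 of the 20 had a mean above log2 4 over the 12 arrays, and fold changes of dim probe sets are understated by this kind of summary. The number of called genes was 18, 5 and 1 without inflexible array 1, 2 or 3, and 2, 5 and 6 without light array 1, 2 or 3. Of the 20 genes, 8, 2 and 1 were still called without inflexible array 1, 2 or 3, and 0, 5 and 4 without light array 1, 2 or 3. Slc35d3 was called in 5 of these 6 fits, Rbp4 and Washc2 in 3, and 10 of the 20 in none, but all 20 kept their direction in each.

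**Figure D2:**
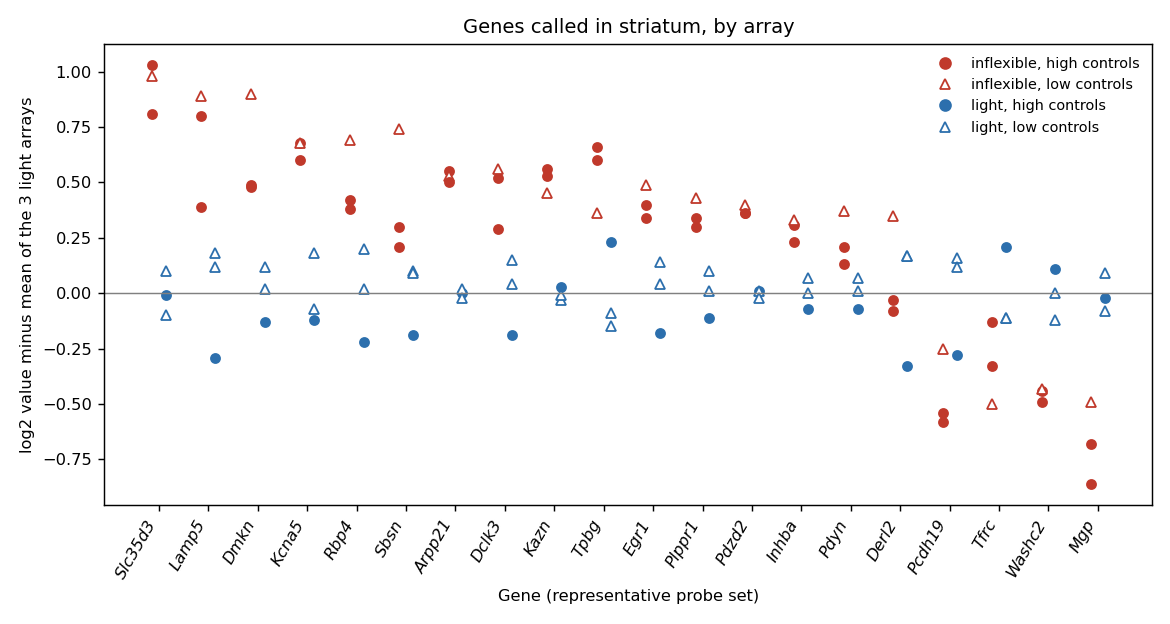
Log2 value of each of the 6 striatal arrays minus the mean of the 3 light arrays, for the 20 called genes in order of their difference. Red marks are inflexible and blue marks light arrays; filled circles have high and open triangles low hybridisation controls. Slc35d3 to Pdyn lie above the light arrays, Mgp and Washc2 below them, and the arrays of Derl2 overlap.

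Slc35d3 had the largest rise among the genes. It encodes an orphan carrier of the nucleotide sugar transporter family that is found in D1 neurons and takes part in D1 receptor traffic. Its log2 values were 5.17, 5.12 and 4.95 on inflexible arrays 1 to 3 and 4.13, 4.24 and 4.04 on light arrays 1 to 3. The lowest inflexible array thus lay well above the highest light one. The difference was 0.94 ± 0.07 (SE), a 1.92-fold rise, with a limma adjusted p of 0.00752 and of 0.00249 without the control term. It was 0.93 among the high-control arrays and 0.97 among the low-control ones.

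Promoter windows are printed for 4 of the genes that rose, those with the smallest p-values, to show the sequence in front of genes that moved together. Each window is 300 bases from RefSeq on GRCm38.p6, runs 5′ to 3′ on the gene's strand, and ends shortly after the annotated start. Capitals mark any match, on either strand, to the cyclic AMP response element TGACGTCA, its core TGACG, the AP-1 site TGANTCA, the EGR site GCGTGGGCG or the TATA box TATAAA. The full cyclic AMP site contains the core on both strands.

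Slc35d3, chr10:19851410-19851709, minus strand: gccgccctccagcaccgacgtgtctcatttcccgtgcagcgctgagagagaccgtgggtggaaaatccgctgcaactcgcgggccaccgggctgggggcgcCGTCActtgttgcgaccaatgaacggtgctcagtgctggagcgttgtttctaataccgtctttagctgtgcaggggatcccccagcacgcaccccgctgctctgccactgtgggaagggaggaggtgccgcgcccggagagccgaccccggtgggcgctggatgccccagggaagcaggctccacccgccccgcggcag

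Kcna5, chr6:126535506-126535805, minus strand: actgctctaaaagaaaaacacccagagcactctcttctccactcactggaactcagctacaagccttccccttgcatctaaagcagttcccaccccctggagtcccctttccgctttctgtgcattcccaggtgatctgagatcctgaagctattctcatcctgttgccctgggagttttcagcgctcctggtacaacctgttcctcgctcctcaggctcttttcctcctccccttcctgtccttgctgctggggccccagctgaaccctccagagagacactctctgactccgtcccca

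Inhba, chr13:16011601-16011900, plus strand: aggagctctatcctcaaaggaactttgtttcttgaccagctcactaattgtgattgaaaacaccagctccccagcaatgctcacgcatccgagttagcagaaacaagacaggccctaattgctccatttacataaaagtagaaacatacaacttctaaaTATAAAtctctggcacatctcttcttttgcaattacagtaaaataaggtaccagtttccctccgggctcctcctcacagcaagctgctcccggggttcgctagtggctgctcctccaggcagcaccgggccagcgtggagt

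Rbp4, chr19:38124762-38125061, minus strand: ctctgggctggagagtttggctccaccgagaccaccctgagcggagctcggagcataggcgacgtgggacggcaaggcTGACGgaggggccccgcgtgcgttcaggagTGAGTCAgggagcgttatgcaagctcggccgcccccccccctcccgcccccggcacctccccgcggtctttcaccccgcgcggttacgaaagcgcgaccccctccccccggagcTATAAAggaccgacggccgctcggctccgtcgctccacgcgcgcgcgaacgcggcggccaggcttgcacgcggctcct

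The Slc35d3 window held 1 core, read on the opposite strand, and the Kcna5 window held none of the 5 motifs. The Inhba window had 1 TATA box. The second of 2 Rbp4 windows, the one printed, had a core, an AP-1 site and a TATA box. The first Rbp4 window held none of the 5 motifs. Windows were found for 17 of the 20 called genes, 34 windows in all; Dclk3, Egr1 and Mgp had no entry in the table. Over all listed windows of a gene, the core occurred in 6 of the 17 genes, the AP-1 site in 5, the TATA box in 2, and the full cyclic AMP site and the EGR site in 0. Of the 32851 windows in the table, 20.8% held the core, 7.81% the AP-1 site, 13.6% the TATA box, 1.79% the full cyclic AMP site and 0.612% the EGR site. A gene with several windows has more chances of a match, so the 2 sets of shares are not on the same footing.

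Arpp21 and Pdyn, members of the projection neuron lists, also rose. Arpp21, the cyclic AMP-regulated phosphoprotein that binds calmodulin, read 9.20, 9.18 and 9.15 on the inflexible and 8.65, 8.67 and 8.63 on the light arrays. Within each group these arrays lay within 0.05 of each other, and the groups were far apart by that measure. The rise was 0.53 ± 0.06, with an adjusted p of 0.0247 with the control term and 0.024 without it. In the fits that left out 1 striatal array, Arpp21 was called 0 times, with rises of 0.51 to 0.54. Arpp21 has 4 other probe sets, none called, and they did not share a direction: their differences were -0.11, -0.04, -0.48 and 0.40. The rise therefore holds for the probe set with the highest signal, not for every transcript region assayed.

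Pdyn encodes the dynorphin precursor of D1 neurons. It read 3.80, 3.96 and 3.72 on the inflexible and 3.52, 3.66 and 3.60 on the light arrays. The groups did not overlap, but all values were low. It rose by 0.29 ± 0.04 with an adjusted p of 0.0498, and without the control term its adjusted p was 1. Dclk3, a doublecortin-like kinase enriched in striatum, read 5.48, 5.52 and 5.25 on the inflexible and 4.77, 5.00 and 5.11 on the light arrays. Its rise was 0.51 ± 0.07, with an adjusted p of 0.0498 and of 0.389 without the term.

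Egr1, an immediate early transcription factor induced by synaptic activity, was at 8.13, 8.22 and 8.07 on the inflexible arrays. The light arrays gave 7.55, 7.77 and 7.87, so all 3 lay lower. The rise was 0.46 ± 0.05 with an adjusted p of 0.0317, and 0.317 without the control term. Inhba, the activin beta A subunit, a secreted ligand induced by neuronal activity, was at 4.46, 4.48 and 4.38 against 4.08, 4.15 and 4.22. It rose by 0.32 ± 0.03, with an adjusted p of 0.0186 and of 0.236 without the term.

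Kcna5 encodes a voltage-gated potassium channel of the Shaker family. It was at 3.97, 3.97 and 3.89 on the inflexible and 3.17, 3.47 and 3.22 on the light arrays. The groups did not overlap. Its rise was 0.67 ± 0.07, or 1.6-fold, with an adjusted p of 0.0186 and of 0.024 without the term. Kazn, a scaffold protein of cell junctions and the cytoskeleton, stood at 5.24, 5.13 and 5.21 against 4.71, 4.65 and 4.67. This is a difference of 0.50 ± 0.05, called with the term (0.0219) and without it (0.024). Its 2 other probe sets, near 3, differed by 0.01 and 0.00.

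Lamp5, a neuronal member of the lysosome-associated membrane protein family, had the largest SE of the 20. It read 6.08, 6.17 and 5.67 on the inflexible and 4.99, 5.40 and 5.46 on the light arrays. Inflexible array 3 lay only just above light array 3. The rise was 0.80 ± 0.11 with an adjusted p of 0.0498, and 0.721 without the control term. Tpbg, a leucine-rich repeat glycoprotein that modulates Wnt signalling, rose by 0.47 ± 0.05 with the control term. Its means were 3.70 ± 0.21 on the light and 4.24 ± 0.16 on the inflexible arrays (SD, n = 3), 0.54 apart without the term. Plppr1, a membrane protein of growing neurites, rose by 0.40 ± 0.05 and Pdzd2, a protein with many PDZ domains, by 0.38 ± 0.04. Without the control term the limma adjusted p of Tpbg, Plppr1 and Pdzd2 was 0.392, 0.421 and 0.0523. None of them was called in a fit that left out 1 striatal array. The other probe sets of Tpbg differed by 0.37 and 0.05 and those of Plppr1 by 0.14, 0.09 and 0.01. Those of Pdzd2 differed by -0.09, 0.02 and 0.05, and none of these was called. Pcdh19, a delta-protocadherin for cell adhesion, fell by 0.34 (SE 0.04), but light array 1 at 5.48 lay below inflexible array 2 at 5.51. Without the control term the difference of Pcdh19 was -0.45 and was not called. Its 2 other probe sets also had negative differences, -0.19 and -0.24, neither called.

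Rbp4, the plasma carrier of retinol, was at 4.41, 4.68 and 4.37 on the inflexible and 3.77, 4.19 and 4.01 on the light arrays. All inflexible arrays were higher, and the 2 low-control light arrays were nearer to them than light array 1. The rise was 0.61 ± 0.06 with an adjusted p of 0.0186, and 1 without the control term. Dmkn and Sbsn encode dermokine and suprabasin, secreted proteins known from the epidermis, and lie near each other on chromosome 7. Dmkn was at 3.57, 3.99 and 3.58 against 2.96, 3.11 and 3.21 and rose by 0.67 ± 0.08. Sbsn was at 3.89, 4.33 and 3.80 against 3.40, 3.69 and 3.68 and rose by 0.54 ± 0.07. The other Sbsn probe sets differed by 0.27 ± 0.12 and -0.02 ± 0.03, and neither was called. Without the control term the differences of Dmkn and Sbsn were 0.62 and 0.42, and neither was called. In both, the low-control inflexible array 2 was the highest. Krtdap, which lies between them and was looked up after these values were seen, stood between 2.87 and 2.96 on all 6 arrays, with a difference of 0.01 ± 0.03.

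Mgp, the matrix Gla protein that inhibits calcification of vessels and cartilage, had the largest called fall. It read 3.49, 3.86 and 3.67 on the inflexible and 4.33, 4.27 and 4.44 on the light arrays. The groups were apart by more than the spread of either. It fell by 0.61 (SE 0.07), with an adjusted p of 0.0387 and of 0.193 without the control term. Tfrc, the transferrin receptor for iron uptake, was at 4.96, 4.79 and 5.16 against 5.50, 5.18 and 5.18. Inflexible array 3 lay just under the 2 lower light arrays, and the fall was 0.43 (SE 0.05) with an adjusted p of 0.0445. Without the control term the difference of Tfrc was -0.32 and was not called.

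Washc2 and Derl2 act in membrane traffic. Washc2, a subunit of the endosomal WASH complex that drives actin assembly, read 5.86, 5.87 and 5.81 on the inflexible and 6.41, 6.18 and 6.30 on the light arrays. It fell by 0.48 (SE 0.05) with an adjusted p of 0.0186, and 0.0848 without the term. A second Washc2 probe set, at 4.04, 4.11 and 3.93 against 4.47, 4.50 and 4.50, was also called and fell by 0.43 (SE 0.04). Its further probe sets, which were dimmer, differed by -0.25 ± 0.11 and 0.02 ± 0.04, and neither was called. Washc2 was the only gene with 2 called probe sets. Derl2, which exports misfolded proteins from the endoplasmic reticulum, rose by 0.22 ± 0.03, but its raw arrays overlapped (3.56, 3.99 and 3.61 against 3.31, 3.81 and 3.81). Without the control term its difference was 0.07.

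Another 5 genes were called only at a probe set that is not the one with the highest signal. Gsn, which severs actin filaments, had a called probe set that fell by 0.90 (SE 0.11), while its brightest one differed by -0.06 ± 0.09. The fall of St6galnac5, a sialyltransferase, was 0.41 (SE 0.05) against -0.04 ± 0.12, and that of Nisch, the imidazoline receptor nischarin, 0.58 (SE 0.08) against 0.15 ± 0.11. For Tcf4, a neuronal helix-loop-helix factor, both probe sets pointed down (-0.29 ± 0.03, called, and -0.37 ± 0.12), and for Unc13c, a synaptic vesicle priming factor, both pointed up (0.34 ± 0.03, called, and 0.37 ± 0.13). The remaining 8 called probe sets carried several gene symbols (5) or none (3) and are not named. One without a symbol had the smallest p of all probe sets. It was at 3.49, 3.51 and 3.53 on the inflexible and 4.28, 4.33 and 4.29 on the light arrays, and it fell by 0.80 (SE 0.05; adjusted p 0.0025, and 8.3e-04 without the control term). In prefrontal cortex its difference was -0.01 ± 0.05.

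Of the falls that missed the threshold, that of Slc8a1 had the smallest p. Slc8a1, the sodium-calcium exchanger, was at 4.18, 4.02 and 3.99 on the inflexible and 4.84, 5.45 and 5.58 on the light arrays. The groups did not overlap, and the difference was -1.19 ± 0.16, the most negative of all 18193 genes, with an adjusted p of 0.0509. The falls next in order of p were those of Samd5 (-0.41 ± 0.06), the AMPA receptor partner Shisa6 (-0.48 ± 0.07), the securin gene Pttg1 (-0.82 ± 0.12), the cell adhesion gene Lsamp (-0.33 ± 0.05) and the proteoglycan gene Dcn (-0.41 ± 0.06). The arrays of Lsamp overlapped, and without the control term its difference was -0.09. Some genes were named in any case because earlier reports on this mouse model deal with them; they may have been picked from these samples and are no independent evidence. Lrrk2 differed by 0.25 ± 0.11, Camk2a by -0.20 ± 0.16, Camk2n1 by 0.13 ± 0.08, Pkp2 by -0.13 ± 0.07 and Gabbr1 by 0.08 ± 0.12. None of these 5 was called.

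Genes of striatal projection neurons lay mostly above 0. Of 9 D1 neuron genes 2 rose (Slc35d3 and Pdyn) and 8 had a positive difference, with a median of 0.26 against 0.00 for all genes. At an unadjusted p under 0.05, 5 were higher and 0 lower. Over all 18193 genes, 9721 differences were positive, and 5.98% of genes were higher and 2.98% lower at that p. Tac1, the substance P precursor, was at 8.18, 8.52 and 7.70 on the inflexible and 6.80, 7.62 and 7.60 on the light arrays. Inflexible array 3 was close to light arrays 2 and 3, and the difference of 0.93 ± 0.18 was not called (adjusted p 0.161). Drd1, the D1 receptor, differed by 0.66 ± 0.13 (adjusted p 0.171). Only 3 of the 9 genes had a mean above log2 4. Among the high-control arrays alone the median of the list was 0.12, and among the low-control arrays 0.33.

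The 6 D2 neuron genes had a median difference of 0.36, with 0 called, 3 higher at an unadjusted p under 0.05 and 0 lower. Gpr6, an orphan receptor of D2 neurons, was at 6.10, 6.22 and 5.86 against 5.47, 5.51 and 5.29, which did not overlap. The difference was 0.70 ± 0.11 with an adjusted p of 0.0872. Penk, the enkephalin precursor, was at 9.11, 9.03 and 8.88 against 8.33, 8.54 and 8.42, a difference of 0.63 ± 0.11 with an adjusted p of 0.135. Drd2, the D2 receptor, differed by 0.40 ± 0.16. Both kinds of projection neuron marker thus pointed the same way.

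Of 24 genes shared by both kinds of projection neuron, Arpp21 rose, 11 were higher and 0 lower at an unadjusted p under 0.05, and 21 had a positive difference. The median was 0.27. Over all 18193 genes, 9721 differences were positive and 5.98% of genes were higher at that p. The transcription factors Meis2 and Rarb differed by 0.53 ± 0.08 and 0.53 ± 0.09, and in both the groups did not overlap. Ppp1r1b, which encodes DARPP-32, was at 7.58, 6.50 and 7.32 on the inflexible and 6.67, 6.43 and 5.63 on the light arrays. Its arrays overlapped, and its difference of 0.75 ± 0.26 was not called. The factor Bcl11b (-0.01 ± 0.07) and the kinase gene Camk4 (0.00 ± 0.08) showed next to no difference, and Cnr1, the cannabinoid receptor, was at -0.30 ± 0.20. The mean level of the list was 6.64, 6.38 and 6.67 on the inflexible and 6.37, 6.25 and 6.09 on the light arrays, so the lowest inflexible array lay 0.01 from the highest light one on this scale.

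The cyclic AMP and DARPP-32 list shares several members with those lists. Of its 29 genes 1 was called (Arpp21), 10 were higher and 0 lower at an unadjusted p under 0.05, and the median was 0.26, or 0.19 without the control term. Over all genes, 5.98% were higher and 2.98% lower at that p. Pde7b, a phosphodiesterase that degrades cyclic AMP, differed by 0.56 ± 0.09 (adjusted p 0.0952). Prkar2b, a regulatory subunit of protein kinase A, differed by 0.45 ± 0.09 and Pde8b, another cyclic AMP phosphodiesterase, by 0.26 ± 0.06. The catalytic subunits Prkaca (-0.08 ± 0.09) and Prkacb (0.10 ± 0.09) and the transcription factor Creb1 (0.05 ± 0.09) lay near 0. The RGS proteins shorten G protein signals: of 16, 0 were called, with a median of 0.03, and 5 were higher at an unadjusted p under 0.05, among them Rgs20 (0.40 ± 0.06), Rgs2 (0.49 ± 0.09), Rgs8 (0.38 ± 0.07) and Rgs9 (0.27 ± 0.12).

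**Figure D3:**
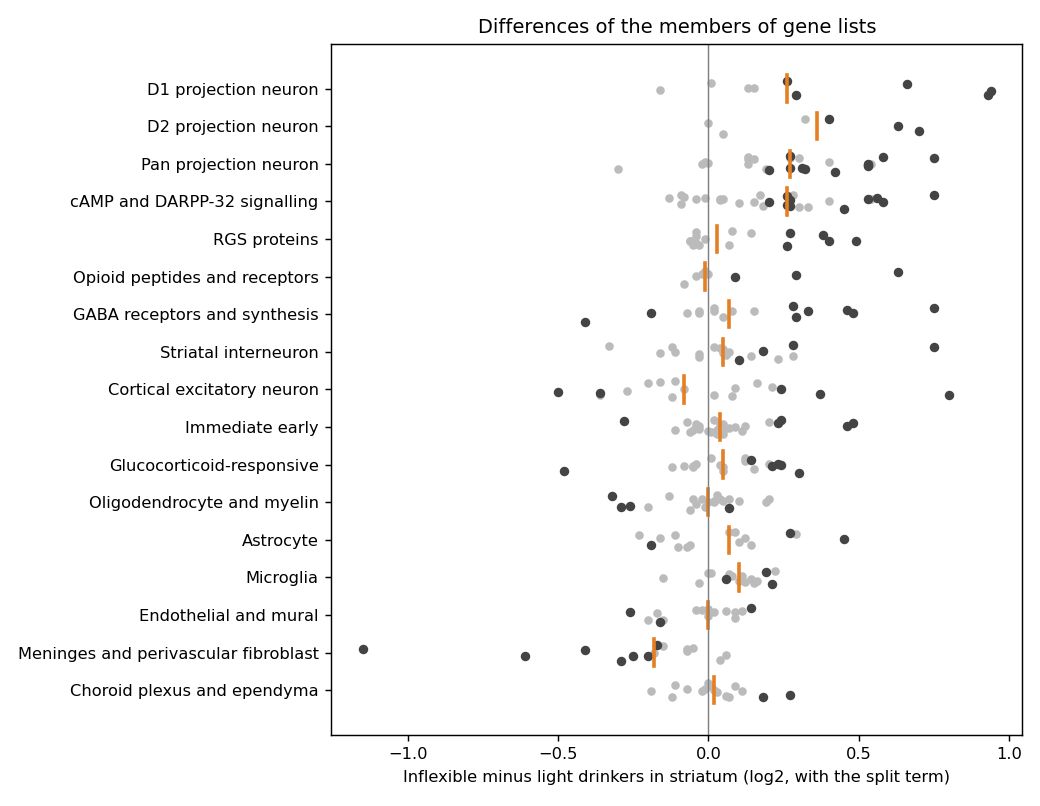
Inflexible minus light difference in striatum (x axis, log2) for the measured members of 17 gene lists, 1 point for each gene; dark points have an unadjusted p under 0.05 and orange bars are list medians. The D1, D2 and shared projection neuron lists and the cyclic AMP list have medians of 0.26 to 0.36, and the meningeal list has a median of -0.18.

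Genes for making and clearing GABA, the transmitter of these neurons, had the larger differences of the GABA list. Gad2, a glutamate decarboxylase, was at 7.06, 6.63 and 6.71 on the inflexible and 5.95, 6.12 and 5.91 on the light arrays. The groups did not overlap, and the difference of 0.75 ± 0.11 had an adjusted p of 0.0747. Abat, which breaks GABA down, differed by 0.48 ± 0.08, Slc32a1, the vesicular GABA transporter, by 0.46 ± 0.14 and Gad1 by 0.28 ± 0.07. The receptor subunit gene Gabra5 went the other way (-0.41 ± 0.12). Over the 16 genes 0 were called and the median was 0.07. At an unadjusted p under 0.05, 6 were higher and 2 lower, against 2 and 0 without the control term. Over all 18193 genes, 1088 were higher and 543 lower with the term, and 376 and 296 without it. The interneuron list, which also holds Gad1 and Gad2, had 0 of 20 called and a median of 0.05.

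Opioid and dopamine genes were mostly near the bottom of the scale. Of 8 opioid genes Pdyn rose and the median was -0.01. The receptor genes Oprk1 (0.09 ± 0.03), Oprd1 (-0.04 ± 0.04) and Oprm1 (-0.01 ± 0.03) lay between 2.89 and 3.18. Of 10 dopamine genes Slc35d3 was called, and the median was 0.03. Th (0.06 ± 0.04) and Slc6a3 (0.03 ± 0.03), which encode the rate-limiting enzyme of dopamine synthesis and the dopamine transporter, read between 2.92 and 3.03 on all 6 arrays.

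Egr1 was the 1 called gene among 28 immediate early genes, whose median was 0.04, and 18 had a positive difference. At an unadjusted p under 0.05, 4 were higher and 1 lower, against 2 and 0 without the control term. Some others were closer to 0: Fos was at -0.11 ± 0.09, Arc at 0.07 ± 0.14, Junb at -0.05 ± 0.09 and Dusp1 at -0.04 ± 0.11. Nptx2, a secreted pentraxin that clusters AMPA receptors, differed by 0.48 ± 0.11 and Bdnf by -0.28 ± 0.09. Among 19 glucocorticoid-responsive genes 0 were called, with a median of 0.05, and 13 had a positive difference. At an unadjusted p under 0.05, 5 were higher and only Nr3c2 was lower. Without the control term these counts were 2 and 1. Over all 18193 genes, 1088 were higher and 543 lower at that p with the term, and 376 and 296 without it. Nr3c2, the mineralocorticoid receptor, was at 5.16, 5.37 and 5.38 against 5.82, 5.65 and 5.85, a difference of -0.48 ± 0.08 with an adjusted p of 0.0867.

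Heat shock and unfolded protein genes had 0 of 31 called and a median of 0.10, with 9 higher and 1 lower at an unadjusted p under 0.05. Without the control term these counts were 2 and 1. Among all 18193 genes, 1088 were higher and 543 lower at that p with the term, and 376 and 296 without it. Xbp1, the transcription factor of the unfolded protein response, was at 6.59, 6.90 and 6.38 against 6.12, 6.45 and 6.44. Its arrays overlapped, and its difference of 0.43 ± 0.06 had an adjusted p of 0.0538. The chaperone gene Hspa5 differed by 0.28 ± 0.05 and Creld2, another gene induced by unfolded protein, by 0.43 ± 0.08. Derl2, which acts in the same organelle, is no member of the list.

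Some list medians depended on the control term. The 59 oxidative phosphorylation genes had a median of 0.10 with it and -0.01 without it, and the 41 cytosolic ribosomal protein genes 0.12 and -0.01. For the 17 cortical excitatory neuron genes the median was -0.08 with the term and 0.18 without it. That list had members on both sides: Lamp5 rose, and the cortical factors Neurod2 (-0.36 ± 0.06, adjusted p 0.0846) and Neurod6 (-0.50 ± 0.09, adjusted p 0.137) had inflexible arrays that all lay below the light ones. Whether cortical tissue differed in amount between the pools was not tested.

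Markers of the meninges and perivascular fibroblasts lay lower in inflexible drinkers. Of 15 genes Mgp fell, 13 had a negative difference, and 7 were lower and 0 higher at an unadjusted p under 0.05. The median was -0.18, and also -0.18 without the control term. Over all 18193 genes, 8472 differences were negative and 2.98% of genes were lower at that p. The mean level of the list was 3.90, 3.90 and 3.89 on the inflexible and 4.13, 4.20 and 4.14 on the light arrays, so the groups did not overlap. Ptgds, the prostaglandin D synthase of the leptomeninges, was at 6.75, 6.46 and 6.27 against 7.55, 8.06 and 7.65, a difference of -1.15 ± 0.17 with an adjusted p of 0.0747. Dcn differed by -0.41 ± 0.06. The collagen genes Col1a1 (-0.07) and Col1a2 (-0.15) and the growth factor gene Igf2 (-0.07) were closer to 0 than the median, and 8 of the 15 genes had a mean above log2 4. Mgp and Dcn belong to this list, so the part of meningeal tissue in their differences was not tested.

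Other non-neuronal lists had no called gene. Their medians were 0.00 over 21 oligodendrocyte and myelin genes, 0.07 over 15 astrocyte genes, 0.10 over 16 microglial genes, 0.00 over 16 endothelial and mural genes and 0.02 over 16 choroid plexus and ependyma genes. Slc1a2, the glial glutamate transporter, was at 9.29, 9.39 and 8.99 against 8.57, 9.07 and 9.13, which overlapped, and its difference of 0.45 ± 0.09 was not called. Ttr differed by -0.12 ± 0.09 in striatum. Of 22 interferon and class I genes and 17 toll-like receptor and cytokine genes 0 were called, with medians of 0.01 and 0.01, and most of both lists were at or below log2 4.

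The striatal differences were set against those in prefrontal cortex. The 2 contrasts share no array, but they share the estimate of the spread and of the control term. In prefrontal cortex 580 genes were called (3.19%), 302 higher (1.66%) and 278 lower (1.53%). Of the 20 genes called in striatum, 7 were also called there and 9 had a prefrontal difference of the opposite sign. The share of opposite signs over all genes was not counted, so the 9 cannot be read as a reversal between regions. The difference between the regions was called for 443 probe sets (0.984%) and 242 genes (1.33%), with an inflexible minus light difference that was higher in striatum for 106 genes (0.583%) and lower for 136 (0.748%). It was called for 14 of the 20, a share that the choice of the genes by the striatal arrays raises.

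**Figure D4:**
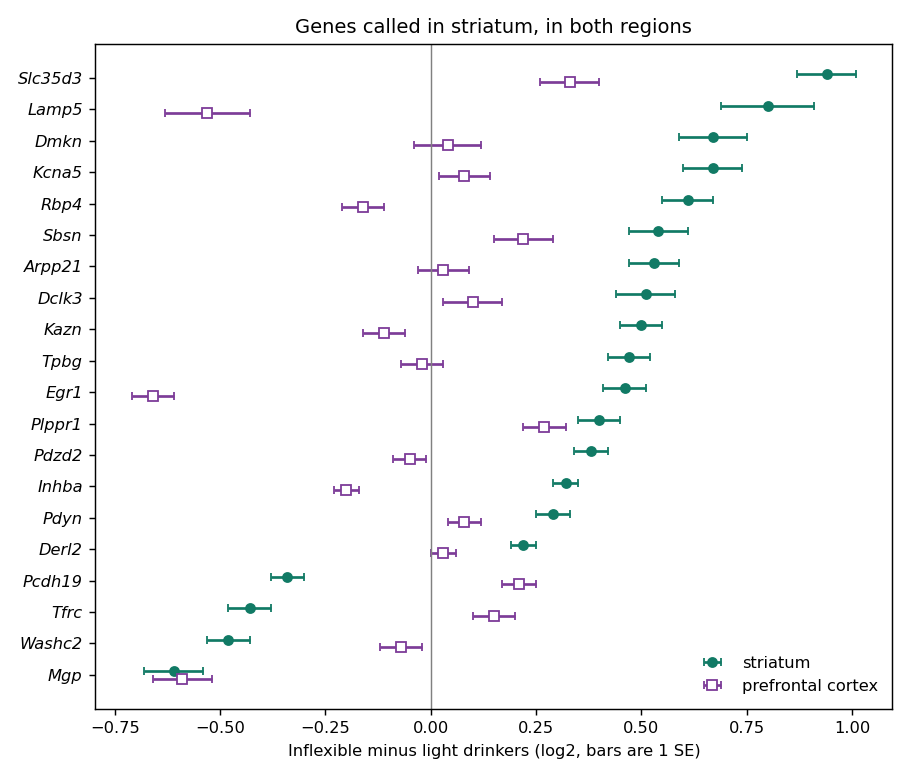
Inflexible minus light difference (x axis, log2) in striatum (filled circles) and prefrontal cortex (open squares) for the 20 genes called in striatum; bars are 1 SE from limma. Egr1, Lamp5 and Inhba have called differences of opposite sign in the 2 regions, and Mgp has nearly the same fall in both.

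Egr1 rose by 0.46 ± 0.05 in striatum and fell by 0.66 (SE 0.05) in prefrontal cortex, where it was at 8.36, 8.23 and 8.42 against 9.00, 8.98 and 9.01. The difference between the regions was 1.12 ± 0.07 with an adjusted p of 4.4e-04. Lamp5 also fell in prefrontal cortex, by 0.53 (SE 0.10), and its regional difference was 1.33 ± 0.15 (adjusted p 0.00457). For Inhba the prefrontal fall was 0.20 (SE 0.03) and the regional difference 0.52 ± 0.04. Pcdh19 fell in striatum and rose in prefrontal cortex (0.21 ± 0.04). These 4 genes passed the test in both regions with opposite signs.

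Slc35d3 rose in both regions, but by more in striatum. Its prefrontal values were 3.19, 3.37 and 3.30 against 2.94, 2.96 and 2.97, a rise of 0.33 ± 0.07, and the regional difference was 0.61 ± 0.10 (adjusted p 0.0276). Arpp21 (0.03 ± 0.06), Kcna5 (0.08 ± 0.06) and Kazn (-0.11 ± 0.05) had small prefrontal differences, none called, and each had a called regional difference of 0.50 to 0.62. Mgp fell in prefrontal cortex too, by 0.59 (SE 0.07). Its regional difference was -0.02 ± 0.10, and the meningeal list had a prefrontal median of -0.26 beside -0.18 in striatum.

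Projection neuron genes had positive medians in both regions: 0.14 for D1, 0.30 for D2 and 0.39 for the shared genes in prefrontal cortex. Penk differed by 1.58 ± 0.11 there, more than in striatum (regional difference -0.95 ± 0.16). Meis2 was the opposite, at 0.53 ± 0.08 in striatum and -0.47 ± 0.08 in prefrontal cortex. Oligodendrocyte and myelin genes had a prefrontal median of 0.47 with 12 of 21 called higher, against 0.00 and 0 of 21 in striatum. Ttr was higher by 6.25 ± 0.08 in inflexible prefrontal cortex. How much the amount of striatal, white matter or choroid tissue in the prefrontal pools bears on the regional differences was not tested.

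The differences of the called genes were also taken on each side of the array split. Among the high-control arrays alone (inflexible 1 and 3 against light 1) and the low-control arrays alone (inflexible 2 against light 2 and 3), all 20 pointed the same way. Lamp5 differed by 0.88 and 0.74, Dmkn by 0.61 and 0.83, Washc2 by -0.57 and -0.38 and Mgp by -0.75 and -0.50. Agreement in sign and in size follows in part from the way the genes were called, since the fit uses the same arrays. Neither side gave a called probe set by itself: limma called 0 on the high-control arrays, with 2783 probe sets at an unadjusted p under 0.05, and 0 on the low-control arrays, with 4056.

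**Figure D5:**
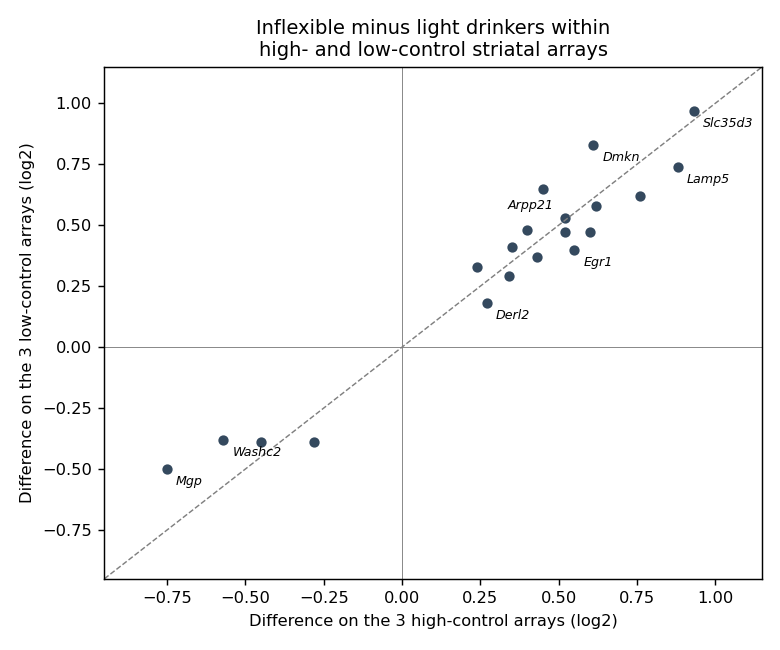
Inflexible minus light difference (log2) of the 20 called genes among the 3 high-control striatal arrays (x axis) and the 3 low-control ones (y axis), 1 point for each gene, with the line of equal values dashed. All points lie in the 2 quadrants of equal sign.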

How the data were processed

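Total RNA of whole striatum and prefrontal cortex was extracted with TRIzol, labelled with biotin and hybridised to 1-colour arrays, per the labels. The authors deposited 1 table of log2 probe set values; RMA and affy are named without versions in the submitters' processing notes, and the log base was read from the range of the values. Of 45101 probe sets 64 controls were left out. Gene symbols came from the platform annotation (34945 probe sets with 1 symbol, 932 with several, 9160 with none), and 34741 gene IDs matched RefSeq.

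With limma 3.58.1 in R 4.3.3, 4 group means and a term for high or low hybridisation controls, split at the widest gap (5 high and 7 low arrays), were fitted to all 12 arrays with 7 residual degrees of freedom. P-values are two-sided, with Benjamini-Hochberg adjustment over 45037 probe sets; called means an adjusted p under 0.05. The term was chosen with the split, and its effect on the prefrontal counts, known from earlier work on these data. The script was tested on simulated data.

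The comparison and the 47 gene lists (970 names, 864 measured) were chosen with earlier results of these data known. Named genes are the 15 largest rises and falls among called genes that held within the high-control and within the low-control arrays, filled to 10 each way by p, the genes called without the term, up to 4 members of a list with the smallest p, the 5 largest regional differences each way, and Lrrk2, Camk2a, Camk2n1, Pkp2, Gabbr1 and Arpp21. Derl2, Fos, Junb, Dusp1, Krtdap, genes called at a dimmer probe set and further list members were named after their values were seen. The labels do not say whether arrays of a group are separate samples, and the number of arrays limits the precision.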

Additional observations from a re-analysis of the deposited data

Results flagged for a closer look

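Genes named in the text whose inflexible minus light difference was itself different between striatum and prefrontal cortex are listed here. The test was limma's contrast of the 2 differences, adjusted over all probe sets, and the values are the striatal minus the prefrontal difference on the log2 scale. A gene can pass through the prefrontal arrays alone.

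Among the genes called in striatum, the value was 1.33 for Lamp5, 1.12 for Egr1, 0.78 for Rbp4, 0.62 for Dmkn, 0.62 for Kazn and 0.61 for Slc35d3. It was 0.60 for Kcna5, 0.52 for Inhba, 0.50 for Arpp21, 0.49 for Tpbg and 0.43 for Pdzd2. The called falls had values of -0.41 for Washc2, -0.57 for Tfrc and -0.55 for Pcdh19.

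For genes with a prefrontal rise or fall that was not called in striatum, large negative values belonged to Ttr (-6.37), the calcium-binding protein gene Cabp7 (-2.30), Shisa6 (-1.85), the myelin gene Mobp (-1.84), Nr3c2 (-1.74), the desmosome gene Pkp2 (-1.27), Gabra5 (-1.23), Neurod6 (-0.99), Penk (-0.95), Samd5 (-0.81), and the oligodendrocyte genes Opalin (-0.80) and Aspa (-0.71). Positive values belonged to Nptx2 (1.35), the upper-layer cortical factor Cux2 (1.31), Arc (1.12), Meis2 (1.01), the metabotropic glutamate receptor gene Grm3 (0.71), the AMPA receptor gene Gria4 (0.67), Fmod (0.64), the immunoglobulin joining chain gene Jchain (0.63), the mitochondrial kinase gene Pink1 (0.60), the chaperone gene Hspa1a (0.47) and the interneuron factor Dlx1 (0.44). Il1r1, the interleukin-1 receptor, stood at -0.50 and the nuclear RNA Neat1 at -0.60.

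The last 6 genes were called in neither region alone, and only the difference passed. The values were 0.99 for Reln, an extracellular glycoprotein of neuronal layering, 0.63 for Rgs20, 0.61 for Xbp1, -0.42 for Neurod2, -0.51 for Dcn and -0.65 for the splicing gene Luc7l2.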

How the results depend on the processing

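Against 34 probe sets and 20 genes called, the fit without the control term called 5 and 4, with the control level as a number 23 and 13, on high-control arrays alone 0 and 0, on low-control arrays alone 0 and 0 (2783 and 4056 probe sets at an unadjusted p under 0.05), on the 6 striatal arrays alone 0 and 0 (2824 unadjusted), above a mean of log2 4 54 and 35, with array weights 61 and 35, and with a minimum fold of 1.2 1 and 0. Quantile normalisation (33 and 19), an intensity trend with robust moderation (40 and 21) and averaging each gene's probe sets (25 genes) stayed within 1.5 times, the last 2 keeping 10 of the 20 genes each. Leaving out 1 array gave 3 to 33 probe sets and 1 to 18 genes. The regional difference, 443 probe sets, gave 141 without the term, 0 on high-control and 178 on low-control arrays, and 309 to 496 otherwise. With the replicate number as a block beside the control term 20 probe sets and 10 genes were called, 6 of them among the 20. Whether the numbers pair the arrays is not known. Deviations of same-numbered arrays correlated at 0.28, 0.32 and -0.56 without the control term and at -0.13, -0.22 and -0.09 with it. Inflexible and light arrays 1 and 2 shared a control level and arrays 3 did not, so these values cannot decide it. The 20 called genes kept their sign in every setting that measured them; above log2 4 that was 12 of them. The calls were less stable: of 352 recomputed values of the 20 genes, 108 were called and 244 (69.3%) were not. Slc35d3 was called in 12 of 17 settings, Rbp4 in 10 of 18, Pdyn in 2 of 17 and Derl2 in 1 of 17. Over 200 named genes and 3536 values, another 51 gained a call, and none changed sign while called. Of the 200, 14 had another sign in at least 1 setting, and 0 of these were called in the main fit.

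Of 423 recomputed list medians 45 moved by at least 1 SD between the arrays of a group. This SD replaced the residual SD of the fit, by which 122 moved, after that count was seen; the wider one labels fewer as moved. Without the control term the medians were 0.18 for cortical excitatory, 0.19 for cyclic AMP, 0.06 for metabotropic glutamate and 0.10 for postsynaptic scaffold genes (-0.08, 0.26, -0.04 and -0.03 with it). On high-control arrays they were 0.12 for D1, 0.28 for D2, -0.09 for oligodendrocyte precursor, -0.03 for endothelial, -0.12 for meningeal, -0.02 for pallidal and midbrain, 0.19 for cyclic AMP, -0.05 for stress neuropeptide, 0.04 for metabotropic glutamate and 0.08 for postsynaptic genes. On low-control arrays they were 0.33 for D1, 0.04 for interneuron, -0.06 for oligodendrocyte, 0.16 for cyclic AMP, 0.18 for GABA and -0.01 for interferon genes. With 1 array left out they ranged from 0.18 to 0.31 for D1, 0.28 to 0.50 for D2, -0.20 to -0.14 for meningeal, 0.18 to 0.26 for cyclic AMP, 0.03 to 0.17 for GABA, 0.03 to 0.07 for RGS, 0.04 to 0.06 for interneuron, 0.06 to 0.15 for circadian clock, -0.02 to 0.06 for oligodendrocyte, -0.06 to -0.01 for septal, thalamic and hypothalamic, -0.03 to 0.02 for pallidal and midbrain, -0.06 to 0.04 for ionotropic glutamate, -0.06 to 0.13 for postsynaptic, 0.00 to 0.01 for toll-like receptor, -0.11 to -0.02 for splicing and -0.02 to 0.01 for serotonin, adrenergic and acetylcholine receptor genes. The causes of these shifts were not tested.

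The number of arrays and the unknown pooling limit these results. Signals of 8 of the 20 called genes had a mean at or below log2 4, near the background of such arrays.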
